A study of Mus musculus with 12 samples.

Results

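A group of 10 genes that encode inhibitory receptors of neutrophils, the phosphatases these receptors recruit, and the CD47 and SIRPα pair was followed in wild-type and *Card9*-/- mouse neutrophils that had spent 4 h either on a control coating or on a coating of immune complexes (IC). The receptors are *Pirb*, *Lilrb4a*, *Cd300a*, *Cd300lf*, *Siglece* and *Ceacam1*, the phosphatases are *Ptpn6* and *Inpp5d*, and the pair is *Cd47* and *Sirpa*. The genes were chosen by name, with earlier results of these data known. Each was found as a transcript cluster (the set of probes that reads the transcripts of a gene) that names no other gene, so that all 10 were measured among the 19938 genes that a cluster names alone. *Cd47* has more than 1 such cluster, and the brighter of them stands for it. None of the 10 genes passed the test in any comparison. The mean difference of the largest size was a higher *Siglece* signal on IC in wild-type cells, which rested on 1 of the 3 experiments. The difference with the smallest p was a higher *Cd47* signal in *Card9*-/- cells on IC.

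The 4 groups were wild-type (C57BL/6) cells on control, wild-type cells on IC, *Card9*-/- (C57BL/6) cells on control and *Card9*-/- cells on IC. The control surface was coated with human serum albumin, and the IC surface also carried an antibody against that albumin, to which Fcγ receptors of the cells bind. The cells were Ly6G+ neutrophils from the bone marrow of mice of both sexes aged 2 to 6 months, purified on a density gradient, and *Card9* was inactivated in all cells of the mutant mice and not only in neutrophils. Each of 3 experiments, given as separate time points, held all 4 groups, with 12 arrays in all and 3 per group. Whether an array holds the RNA of a single mouse or of several is not stated. The p-values therefore measure the spread between these arrays that remains after shifts between experiments are taken out.

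Inhibitory receptors of myeloid cells carry immunoreceptor tyrosine-based inhibitory motifs (ITIMs) in their cytoplasmic tails. Once these tyrosines are phosphorylated by Src-family kinases, they recruit SHP-1, a tyrosine phosphatase encoded by *Ptpn6*, or SHIP-1, a lipid phosphatase encoded by *Inpp5d*, which counteract signals of activating receptors such as the Fcγ receptors. CARD9 is an adaptor downstream of the kinase Syk, on which many of the same activating receptors depend. The design asks whether the RNA of this inhibitory machinery differs between cells that met IC and cells that did not, and between cells with and without CARD9.

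The log2 signals of *Card9* itself were between 8.08 and 8.75 on the wild-type arrays and between 5.56 and 6.42 on the *Card9*-/- arrays, which did not overlap (limma, adjusted p = 0.00229 on control and 0.00491 on IC). All 10 neutrophil markers were measured, with a mean log2 signal of 12.12 to 12.45 on every array, and the 7 measured monocyte markers had a mean of 7.16 to 8.15. B cell markers (7 measured) lay at 5.70 to 5.83 in experiment 2 and at 8.23 to 9.26 in experiment 3. In experiment 1 they lay at 7.10 on control and 6.88 on IC in wild-type cells, and at 8.15 and 8.30 in *Card9*-/- cells. Markers of eosinophils, basophils and mast cells lay at 7.06 to 8.38, with the 2 highest values on the *Card9*-/- arrays of experiment 3. T and NK cell markers lay at 5.78 to 6.30 and erythroid markers at 5.32 to 6.71. None of the markers was called in any comparison. The correlation of signals across clusters was 0.985 to 0.997 between arrays of an experiment and 0.944 to 0.986 between experiments.

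The sequences just before and at the transcription start of *Pirb*, *Cd300lf*, *Inpp5d* and *Cd47* are shown because these 4 are among the 5 genes whose signal was below the control on IC in all 3 wild-type experiments (*Sirpa*, the other gene, and *Lilrb4a* had no entry in the table of sequences). They are RefSeq windows of 300 bases on GRCm38.p6, from 250 bases before the start to 50 after it, printed in the direction of the gene. They lie at chr7:3720333-3720632 on the minus strand (*Pirb*), chr11:115133943-115134242 on the minus strand (*Cd300lf*), chr1:87620062-87620361 on the plus strand (*Inpp5d*) and chr16:49855404-49855703 on the plus strand (*Cd47*). Capitals mark GAGGAAGT in the first 3 windows and CG in that of *Cd47*.
Pirb: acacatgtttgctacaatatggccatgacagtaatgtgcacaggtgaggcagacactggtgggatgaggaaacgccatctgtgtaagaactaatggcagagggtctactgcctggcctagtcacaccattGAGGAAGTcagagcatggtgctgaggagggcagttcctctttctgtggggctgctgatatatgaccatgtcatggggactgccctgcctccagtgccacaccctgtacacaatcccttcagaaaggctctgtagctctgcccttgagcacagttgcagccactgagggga
Cd300lf: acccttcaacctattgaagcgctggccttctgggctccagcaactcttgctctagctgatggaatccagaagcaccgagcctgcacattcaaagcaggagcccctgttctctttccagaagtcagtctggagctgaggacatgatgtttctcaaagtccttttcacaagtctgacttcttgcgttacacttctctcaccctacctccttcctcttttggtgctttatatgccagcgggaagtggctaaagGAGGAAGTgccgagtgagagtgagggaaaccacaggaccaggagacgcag
Inpp5d: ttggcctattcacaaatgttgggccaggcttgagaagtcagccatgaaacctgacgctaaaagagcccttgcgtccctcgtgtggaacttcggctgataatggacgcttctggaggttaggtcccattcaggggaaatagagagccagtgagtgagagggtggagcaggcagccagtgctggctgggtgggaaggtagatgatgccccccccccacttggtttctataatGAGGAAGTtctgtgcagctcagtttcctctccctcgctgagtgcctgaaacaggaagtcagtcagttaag
Cd47: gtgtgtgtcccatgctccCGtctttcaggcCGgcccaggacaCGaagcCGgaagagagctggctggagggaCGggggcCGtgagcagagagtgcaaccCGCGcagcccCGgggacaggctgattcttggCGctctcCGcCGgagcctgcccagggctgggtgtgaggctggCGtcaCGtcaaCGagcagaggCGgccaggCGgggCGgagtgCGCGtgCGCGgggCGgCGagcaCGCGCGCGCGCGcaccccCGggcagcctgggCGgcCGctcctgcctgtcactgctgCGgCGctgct
GAGGAAGT, which holds the core to which ETS factors such as the myeloid factor PU.1 bind, was looked for on both strands after the windows had been read. It begins at base 131 of the *Pirb* window, at base 251, the transcription start, of the *Cd300lf* window and at base 231 of the *Inpp5d* window. None of the other genes with a window had it, and 3.2% of 32851 windows of all genes did. Since these letters were picked after reading the windows, that share gives no test of how often they occur here. The shorter GGAA is in the windows of all 8 genes that have one, and in 96% of all windows. The NF-κB consensus, also looked for on both strands, is in 1 of the 8, that of *Cd300a*, and in 8.46% of all windows. *Cd47* has a window of another kind, with 35 CG steps and 74% G and C, where the median of all windows is 7 CG steps and 52.7%. A match is a description of letters, and no binding was measured.

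For most of the genes the signal differed more between experiments than between surfaces or genotypes. For 9 of the 10 genes the distance between the highest and the lowest experiment mean was larger than any mean difference between surfaces or genotypes, the exception being *Lilrb4a*. The mean was lowest in experiment 3 for those 9 genes, and it was highest in experiment 2 for 7 of the 10. All arrays were lower in experiment 3, with array medians of 5.27 to 5.39 against 5.70 to 5.75 in experiment 1 and 5.86 to 5.93 in experiment 2. No share over all clusters is given beside these counts, so they are not shown to be particular to the 10 genes. The distance is also a range over 3 means, while the differences are averages over 3 experiments. *Siglece* had the largest distance, with means of 9.98, 11.19 and 9.41 in experiments 1, 2 and 3, followed by *Cd300a* with 9.48, 10.04 and 8.74. All 10 genes were in the brightest 10% of clusters by mean signal.

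**Figure D1:**
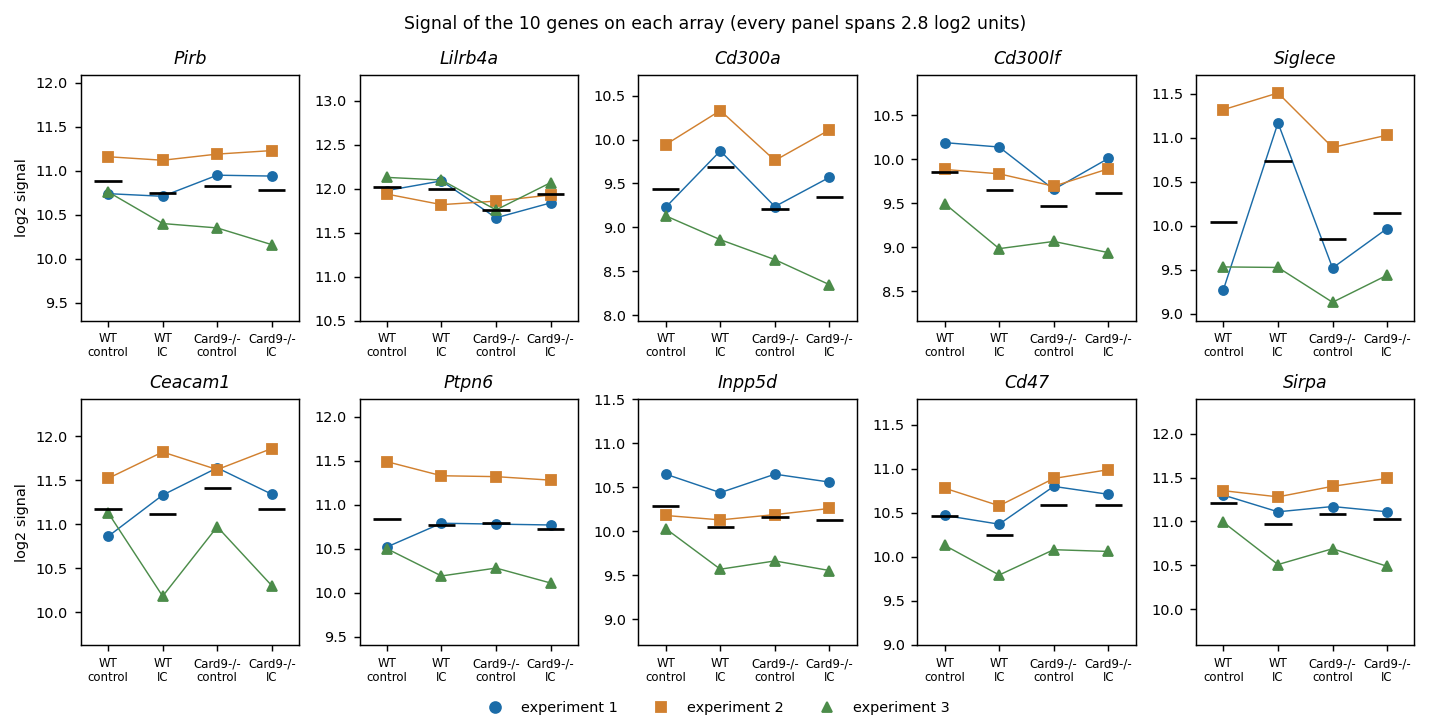
The log2 signal of each of the 10 genes (vertical axis, 1 panel per gene) on each of the 12 arrays, by group (horizontal axis), with thin lines joining the arrays of an experiment and black bars for the mean of 3 experiments. The lines of the experiments lie apart in most panels, with experiment 3 lowest for 9 genes, and only *Siglece* has a single array (wild type on IC, experiment 1, at 11.17) that leaves the level of its own experiment by more than 1 log2 unit.

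*Siglece* encodes Siglec-E, a receptor for sialic acids that is prominent on mouse neutrophils. In wild-type cells it had log2 signals of 9.27, 11.32 and 9.53 on control and of 11.17, 11.51 and 9.52 on IC in experiments 1, 2 and 3. In *Card9*-/- cells the signals were 9.52, 10.89 and 9.13 on control and 9.97, 11.03 and 9.44 on IC. The groups overlap, since the 4 arrays of experiment 2 are high whatever the group, but within experiments 1 and 2 the IC array was above its control in both genotypes. The log2 difference between IC and control in wild-type cells was 0.70 (SE 0.273, n = 3 experiments, limma, adjusted p = 0.484), a fold of 1.62 with a 95% confidence interval of 1.07 to 2.45. The experiments gave 1.90, 0.20 and −0.0066 in turn, so the mean rests on experiment 1 and falls to 0.095 without it. The monocyte markers had median differences of 0.171, 0.114 and −0.025 in the same comparison and experiments, with mean signals of 7.47 on control and 7.80 on IC in experiment 1, and their part in the *Siglece* values was not tested. In *Card9*-/- cells the difference was 0.30 (SE 0.273) and was above 0 in all 3 experiments. Averaged over the genotypes it was 0.50 (SE 0.193, limma, adjusted p = 0.502), and 0.16 without experiment 1.

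*Cd300a* and *Cd300lf* lie on chromosome 11 and encode inhibitory members of the CD300 family, which bind phospholipids that dying cells expose. *Cd300a* had log2 signals of 9.23, 9.94 and 9.13 on control and of 9.87, 10.33 and 8.86 on IC in wild-type cells, and of 9.24, 9.76 and 8.63 on control and 9.57, 10.11 and 8.35 on IC in *Card9*-/- cells. In both genotypes the signal on IC was thus higher than on control in experiments 1 and 2 and lower in experiment 3, with mean log2 differences of 0.25 (SE 0.180) in wild-type and 0.13 (SE 0.180) in *Card9*-/- cells. The mean of the wild-type differences was 0.51 when experiment 3 was left out and 0.057 when experiment 1 was left out. *Cd300lf* had signals of 10.19, 9.88 and 9.50 on control and 10.14, 9.83 and 8.98 on IC in wild-type cells, and 9.66, 9.69 and 9.07 on control and 10.01, 9.89 and 8.94 on IC in *Card9*-/- cells. In wild-type cells each IC array was below its control, while in *Card9*-/- cells the differences had the same sign as those of *Cd300a* in each experiment (mean 0.14, SE 0.131). On control the *Card9*-/- array was the lower of the pair in every experiment, while on IC the genotypes lay within 0.14 of each other.

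*Pirb* encodes PIR-B, an ITIM receptor for MHC class I molecules, and *Lilrb4a* encodes gp49B, a related receptor. For *Pirb* the signals were 10.74, 11.16 and 10.76 on control and 10.71, 11.12 and 10.40 on IC in wild-type cells, and 10.95, 11.19 and 10.35 on control and 10.94, 11.23 and 10.16 on IC in *Card9*-/- cells. In experiments 1 and 2 the surfaces differed by less than 0.05 in either genotype. *Pirb* sits among near-identical *Pira* genes, whose transcripts its probes may also read. Its 2 further clusters, which name 6 genes each, followed it at r = 0.754 and 0.872 over 12 arrays with the experiment means removed, and their differences between the surfaces in wild-type cells were −0.024 and −0.067 where that of *Pirb* was −0.15. *Lilrb4a*, which also has a close copy, had signals of 11.98, 11.94 and 12.13 on control and 12.09, 11.82 and 12.10 on IC in wild-type cells, and 11.67, 11.86 and 11.76 on control and 11.84, 11.93 and 12.07 on IC in *Card9*-/- cells. The 3 *Card9*-/- arrays on control were below all 3 wild-type arrays on control, and it was the steadiest of the 10 genes, with 0.131 between its experiment means.

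*Ceacam1* encodes an adhesion molecule that binds itself on neighbouring cells and carries ITIMs in its long form. In wild-type cells the signals were 10.86, 11.52 and 11.13 on control and 11.33, 11.82 and 10.18 on IC, and in *Card9*-/- cells they were 11.64, 11.62 and 10.97 on control and 11.34, 11.86 and 10.30 on IC. The IC array of wild-type cells was above its control by 0.48 and 0.29 in experiments 1 and 2 and below it by 0.95 in experiment 3 (log2 difference −0.95), and the mean of −0.061 (SE 0.246) averages these opposite values. The *Ceacam1* probes may also read the close relative *Ceacam2*.

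*Ptpn6*, which encodes SHP-1, had signals of 10.52, 11.49 and 10.50 on control and 10.79, 11.33 and 10.19 on IC in wild-type cells, and 10.78, 11.32 and 10.28 on control and 10.77, 11.28 and 10.11 on IC in *Card9*-/- cells. Its mean differences were all within 0.077 of 0, at −0.066 (95% confidence interval −0.34 to 0.21) between the surfaces in wild-type cells, −0.077 (−0.35 to 0.20) in *Card9*-/- cells, and −0.041 (−0.32 to 0.23) and −0.052 (−0.33 to 0.22) between the genotypes on control and on IC. *Inpp5d*, which encodes SHIP-1, had signals of 10.65, 10.18 and 10.03 on control and 10.44, 10.13 and 9.57 on IC in wild-type cells, and 10.65, 10.19 and 9.66 on control and 10.56, 10.26 and 9.55 on IC in *Card9*-/- cells. Each wild-type IC array was below its control, by differences of −0.20, −0.050 and −0.46 (mean −0.24, SE 0.114, limma, adjusted p = 0.536).

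*Sirpa* encodes SIRPα, the ITIM receptor through which a phagocyte senses CD47, and *Cd47* encodes that ligand, a membrane protein present on nearly all cells. *Sirpa* had signals of 11.30, 11.35 and 10.99 on control and 11.11, 11.28 and 10.51 on IC in wild-type cells, and 11.17, 11.40 and 10.69 on control and 11.11, 11.49 and 10.49 on IC in *Card9*-/- cells. In wild-type cells its difference between the surfaces was −0.19, −0.065 and −0.49 (mean −0.25, SE 0.117, limma, adjusted p = 0.532), close to that of *Inpp5d* in each experiment. *Cd47* had signals of 10.47, 10.78 and 10.13 on control and 10.37, 10.58 and 9.79 on IC in wild-type cells, where its difference was −0.21 (SE 0.101, limma, adjusted p = 0.532). In *Card9*-/- cells *Cd47* had 10.80, 10.89 and 10.08 on control and 10.71, 10.99 and 10.06 on IC. There the surfaces differed by −0.091, 0.099 and −0.020, so that the wild-type IC array was the lowest of the 4 for *Cd47* in every experiment.

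On IC in wild-type cells, 5 of the 10 genes (*Pirb*, *Cd300lf*, *Inpp5d*, *Cd47* and *Sirpa*) had a lower signal than on control in all 3 experiments and 0 had a higher one in all 3. Of all 28944 clusters tested, 31% had the same sign in all 3 experiments in either direction. The limma test called 0 of the 10 genes (background 0%), as did the methods' factorial test, which had neither moderation nor an experiment term. In limma 1 gene, *Siglece*, had an unadjusted p under 0.05 (background 9.59%). The median difference over the 10 genes was −0.107, with 2 above 0 and 8 below, against 0.039 over all clusters and −0.062 over the brightest 10% of clusters. The neutrophil markers had a median of −0.155, with 7 of 10 below 0. Their part in these values was not tested, and in bulk RNA fewer cells of a type and less RNA per cell cannot be told apart.

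In *Card9*-/- cells the mean differences between IC and control ranged from −0.247 to 0.299. The median difference was −0.0235, with 4 genes above 0 and 6 below, against −0.0106 over all clusters. That median averages experiments of unlike sign. In experiment 2, 9 genes were above 0 (median 0.0928), and in experiment 3, 8 were below it (median −0.152). Experiment 1 had 4 genes above 0 and 6 below (median −0.00915). *Lilrb4a* (0.18, SE 0.108) and *Siglece* were above 0 in all 3 experiments and *Ptpn6* was below it, 3 of 10 genes with a constant sign where the background was 26.2%. The test called 0 genes (background 0%), and 0 had an unadjusted p under 0.05 (background 3.01%). Averaged over both genotypes, 3 genes were above 0 and 7 below, 0 were called (background 0.0104%), 1 had an unadjusted p under 0.05 (*Siglece*, background 9.01%), and the sign was constant for 1 gene above 0 and 2 below it (background 29.5%).

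**Figure D2:**
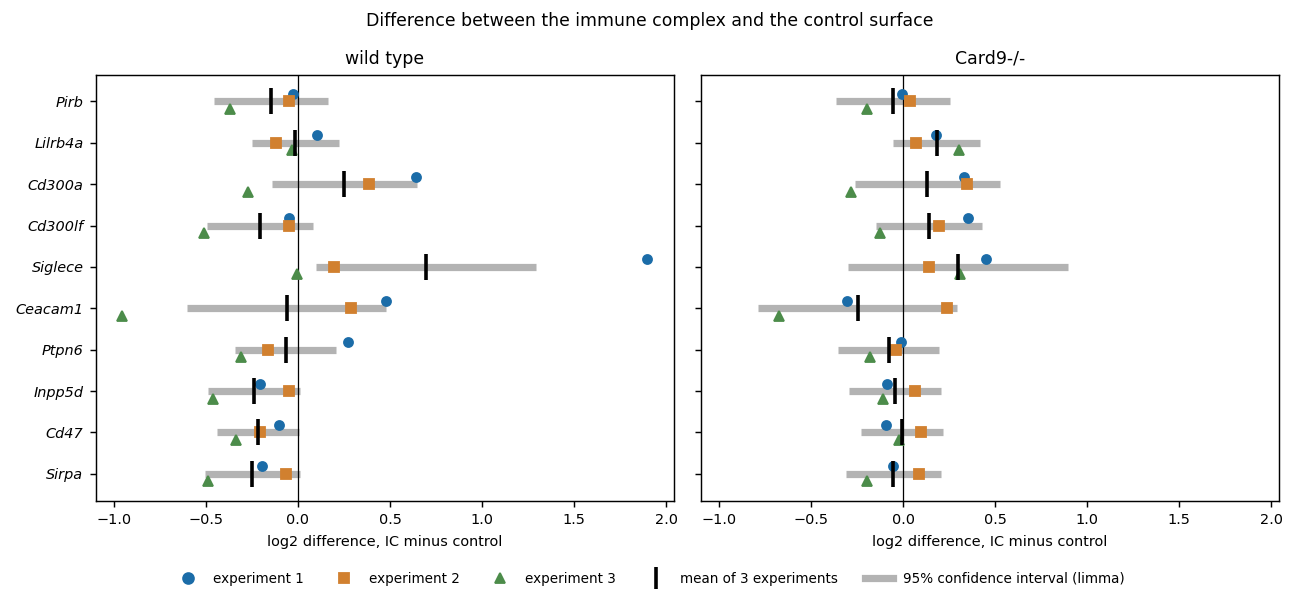
IC minus control in log2 signal (horizontal axis) for each of the 10 genes in wild-type cells (left) and *Card9*-/- cells (right), with a symbol per experiment, a black bar for the mean and a grey bar for the 95% confidence interval of the limma fit. In wild-type cells the symbols of experiment 3 lie left of 0 for all 10 genes, and the interval of *Siglece* alone leaves out 0, with its experiment 1 at 1.90.

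The difference in response between the genotypes, that is the response of *Card9*-/- cells minus that of wild-type cells, was above 0 in all 3 experiments for 6 genes (*Pirb*, *Lilrb4a*, *Cd300lf*, *Inpp5d*, *Cd47* and *Sirpa*) and below 0 in all 3 for *Cd300a*. Over all clusters, 29% had a constant sign. The largest of the 6 was that of *Cd300lf*, with 0.40, 0.25 and 0.39 in experiments 1, 2 and 3 (mean 0.34, SE 0.186, 95% confidence interval −0.062 to 0.75, limma, adjusted p = 0.999). *Siglece* had the largest in the other direction (−0.40, SE 0.386), which was −1.45 in experiment 1 and turned to 0.13 without it. The test called 0 genes (background 0%), and 0 had an unadjusted p under 0.05 (background 3.68%). The median of the 10 genes was 0.144, against −0.0301 over all clusters and 0.0473 over the brightest 10%, and that of the neutrophil markers was 0.159, with 9 of 10 above 0.

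Between the genotypes on the control surface, *Cd300lf* and *Lilrb4a* had a lower signal in *Card9*-/- cells in all 3 experiments, 2 of 10 genes with a constant sign (background 30.7%). The difference was −0.39 for *Cd300lf* (SE 0.131, limma, adjusted p = 0.954) and −0.26 for *Lilrb4a* (SE 0.108, adjusted p = 0.954), folds of 0.765 and 0.837. These 2 genes were those with an unadjusted p under 0.05 (background 4.64%), and 0 were called (background 0.038%). On control 8 of the 10 genes were below 0, with a median of −0.122 against 0.026 over all clusters and −0.0229 over the brightest 10%. Of the 10 neutrophil markers 9 were below 0, with a median of −0.0677. The signs changed between experiments. In experiments 1, 2 and 3 the medians were 0.109, −0.0348 and −0.368 for the 10 genes and −0.0411, 0.108 and −0.254 for the neutrophil markers. *Ceacam1* had a mean above 0, of 0.24 (SE 0.246), from 0.79 in experiment 1 to −0.16 in experiment 3.

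On IC, *Cd47* had a higher signal in *Card9*-/- than in wild-type cells in every experiment, by log2 differences of 0.34, 0.41 and 0.27 (mean 0.34, SE 0.101, fold 1.27, 95% confidence interval of the log2 difference 0.12 to 0.56, limma, adjusted p = 0.274). *Siglece* and *Cd300a* were lower in every experiment, with −1.20, −0.48 and −0.087 for *Siglece* (mean −0.59, SE 0.273, limma, adjusted p = 0.553) and −0.30, −0.22 and −0.51 for *Cd300a* (mean −0.34, SE 0.180). Of the 10 genes, 5 were above 0 and 5 below, and the sign was constant for 2 above (*Cd47* and *Ceacam1*) and 3 below (*Siglece*, *Cd300a* and *Ptpn6*), against a background of 28.9%. The test called 0 of them (background 0.162%), and *Cd47* alone had an unadjusted p under 0.05 (background 9.13%). In the same comparison 9 of the 10 neutrophil markers were above 0, with a median of 0.0834 and with 0.163, 0.142 and −0.0802 in experiments 1, 2 and 3. The B cell markers had a median of 0.683, with 1.59, 0.025 and 0.535 in experiments 1, 2 and 3. The markers of eosinophils, basophils and mast cells had a median of 0.383, and the part of any of these cells in the *Cd47* values was not tested. *Cd300lf*, at −0.041 (SE 0.131), and *Lilrb4a*, at −0.058 (SE 0.108), were closer to 0 on IC than on control, but the change from the one surface to the other, which is the difference in response above, did not pass the test for either.

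Averaged over the surfaces, the genotypes differed at an unadjusted p under 0.05 for *Cd47* (0.24, SE 0.0717, limma, adjusted p = 0.247), *Cd300lf* (−0.21, SE 0.0929, adjusted p = 0.466) and *Cd300a* (−0.28, SE 0.127, adjusted p = 0.484), 3 of 10 genes where the background was 10.1%. The test called 0 of the 10 genes, while it called 153 clusters, 0.529% of all. The sign was constant for 1 gene above 0 (*Cd47*) and 3 below (*Cd300a*, *Cd300lf* and *Siglece*), against a background of 29.6%. In the same comparison the B cell markers had a median difference of 0.629, with 1.31, −0.0017 and 0.423 in experiments 1, 2 and 3, and the markers of eosinophils, basophils and mast cells had one of 0.355, with −0.195, 0.0815 and 0.847, where *Cd47* had 0.34, 0.26 and 0.11. The part of these cells in the values was not tested. Over the 7 comparisons the widest bound of any gene's 95% confidence interval was a log2 difference of 1.29, so that larger mean differences lie outside the intervals of all 10 genes.

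**Figure D3:**
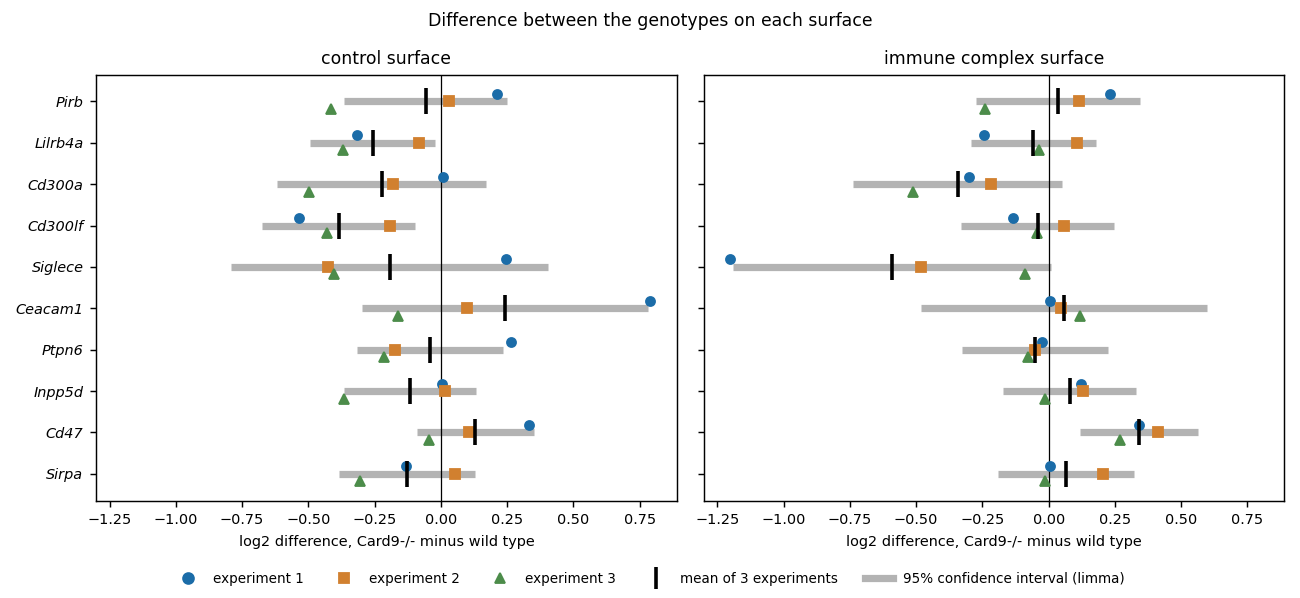
*Card9*-/- minus wild type in log2 signal (horizontal axis) for each of the 10 genes on the control surface (left) and on the IC surface (right), with a symbol per experiment, a black bar for the mean and a grey bar for the 95% confidence interval of the limma fit. The intervals of *Lilrb4a* and *Cd300lf* lie left of 0 on control, and that of *Cd47*, with its 3 experiments between 0.27 and 0.41, lies right of 0 on IC.

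The second cluster of *Cd47* is a further set of probes for the gene on the same arrays. It followed the first at r = 0.926 over 12 arrays with the experiment means removed. In wild-type cells its signals were 10.11, 10.74 and 9.11 on control and 9.86, 10.58 and 8.36 on IC, and in *Card9*-/- cells they were 10.41, 10.88 and 9.07 on control and 10.32, 10.99 and 8.96 on IC. As in the first cluster, the wild-type IC array was the lowest of each experiment. The log2 difference between the genotypes on IC was 0.49 (SE 0.121, limma, adjusted p = 0.182), with 0.46, 0.41 and 0.60 in experiments 1, 2 and 3, and that between the surfaces in wild-type cells was −0.39 (SE 0.121, adjusted p = 0.438). Neither passed the test over all clusters. Both clusters share the RNA of each array, so they are no replicates of the groups.

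**Figure D4:**
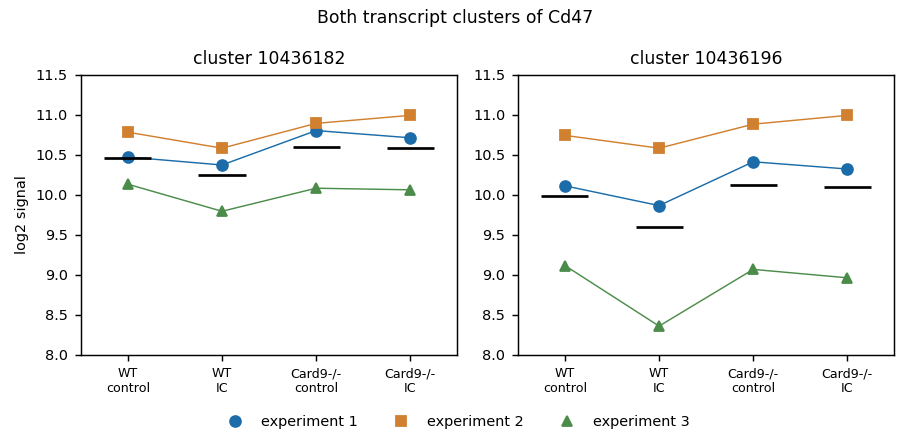
The log2 signal (vertical axis) of the 2 *Cd47* clusters on each of the 12 arrays, by group (horizontal axis), with thin lines joining the arrays of an experiment and black bars for the mean of 3 experiments. In both panels the wild-type IC array is the lowest of its experiment, and the second cluster reaches lower in experiment 3, down to 8.36.

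Much of what the 10 genes had in common was lost when a single array was left out. In experiment 3, all 10 genes had a lower signal on IC than on control in wild-type cells, with a median difference of −0.351, and all 10 had a lower signal in *Card9*-/- than in wild-type cells on control, with a median of −0.368. Both comparisons use the wild-type control array of experiment 3, which had the highest signal of its experiment for 10 of 10 genes. That array was also the highest for 48.8% of the brightest 10% of clusters and for 22.6% of all clusters, and the medians of the brightest 10% in these comparisons were −0.139 and −0.0818. In experiments 1 and 2 the medians of the 10 genes between the surfaces in wild-type cells were 0.0387 and −0.0506, with 5 and 3 genes above 0. With that array left out, the wild-type difference between the surfaces was above 0 for 6 genes and below for 4 (median 0.0177), the difference in response for 5 and 5 (median −0.0108), and the genotype difference on control for 6 and 4 (median 0.0196).

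The values that the text gives for single genes moved with that array in unequal measure. Between the surfaces in wild-type cells, the differences of *Inpp5d*, *Sirpa* and *Cd47* became −0.11, −0.13 and −0.13, that of *Pirb* turned to 0.031, and that of *Ceacam1* turned to 0.29. On control, the genotype difference became −0.27 for *Cd300lf* and −0.24 for *Lilrb4a*. The genotype differences on IC do not use that array, and that of *Cd47* stayed at 0.34. Still 0 of the 10 genes were called in any of the 7 comparisons, with a smallest adjusted p of 0.185, for *Cd47* averaged over the surfaces. Why this array was high for these genes was not tested.

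**Figure D5:**
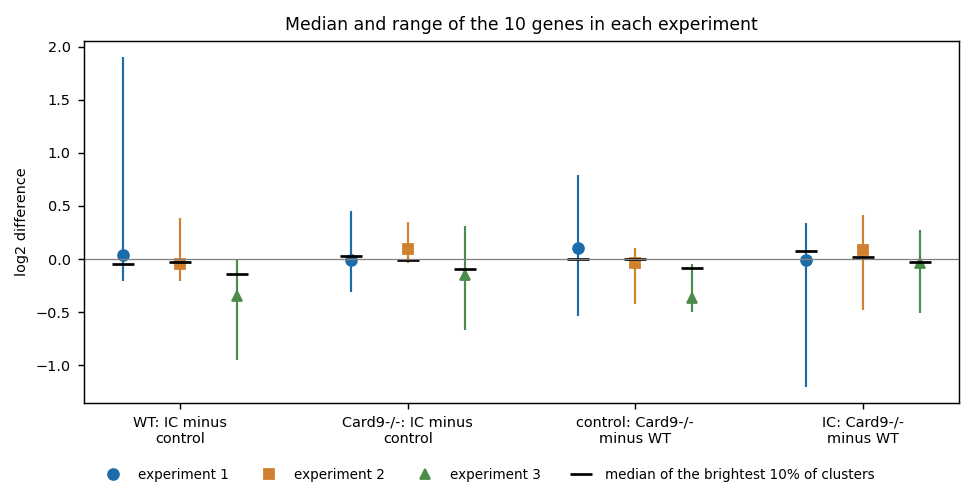
The median (symbol) and the range (vertical line) over the 10 genes of the log2 difference (vertical axis) in each of 4 comparisons (horizontal axis), by experiment, with a black bar for the median over the brightest 10% of clusters. In experiment 3 the whole range lies below 0 for IC minus control in wild-type cells and for *Card9*-/- minus wild type on control, the comparisons that share the wild-type control array.

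The wider pathway was described with 53 further genes in 4 lists, of which 51 were measured, by 49 clusters. None of these clusters was called in any of the 7 comparisons. The share with an unadjusted p under 0.05 was 12.2% for IC in wild-type cells (9.59% over all clusters), 6.12% for IC in *Card9*-/- cells (3.01%) and 0% for the difference in response (3.68%). It was 2.04% and 14.3% for the genotypes on control and on IC (4.64% and 9.13%), and 24.5% and 18.4% for the surfaces and the genotypes averaged (9.01% and 10.1%). The lists were chosen with earlier results of these data known, so the shares over all clusters give no test of them.

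The 15 other inhibitory receptors had a median genotype difference on IC of 0.221, with 12 above 0 and 3 below, against −0.0138 over all clusters. Among those above 0 were *Cd72* (0.63), *Cd22* (0.29) and *Siglecg* (0.22), receptors of B cells. Of these, *Cd72* and *Siglecg* had −0.54 and −0.28 in experiment 2. *Siglecf* (0.21), also above 0, is among the markers of eosinophils, basophils and mast cells used here. The others above 0 were *Milr1* (0.48), *Clec12a* (0.38), *Pecam1* (0.31), *Cd200r1* (0.24), *Clec4a2* (0.22), *Vsir* (0.13), *Ceacam2* (0.095) and *Cd33* (0.018). The B cell markers had a median of 0.683 in that comparison, and the part of these cells in the list's median was not tested. *Milr1*, which encodes Allergin-1, an ITIM receptor known from mast cells, was lower on IC than on control in wild-type cells by −0.32, −0.54 and −0.53 (mean −0.46, limma, adjusted p = 0.389). It was higher in *Card9*-/- than in wild-type cells on IC by 0.51, 0.68 and 0.24 (mean 0.48, adjusted p = 0.182). The markers of eosinophils, basophils and mast cells had a median of 0.383 in that comparison, with −0.067, 0.12 and 0.78 in experiments 1, 2 and 3, and their part in the *Milr1* values was not tested. *Clec12a*, which encodes a C-type lectin that senses urate crystals, had −0.35 between the surfaces in wild-type cells and 0.38 between the genotypes on IC. *Lair1*, which encodes a collagen receptor, was the opposite, with −0.81 between the genotypes on IC, of which −1.43 and −1.03 came from experiments 1 and 2 and 0.016 from experiment 3. *Siglecg* (0.44, adjusted p = 0.376) and *Cd22* (0.37), both receptors of B cells, were higher on IC averaged over the genotypes, and *Cd22* had 0.065, 0.24 and 0.81 in experiments 1, 2 and 3. The B cell markers had differences of −0.041, 0.072 and 0.79 in the same comparison, and their part in these values was not tested.

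Among the effectors of inhibition 15 of 17 genes were measured, and their median difference was −0.0725 between the surfaces in wild-type cells and −0.0217 between the genotypes on IC. *Ptpn22*, which encodes a phosphatase of Src-family kinases, was lower on IC averaged over the genotypes by −0.62, −0.36 and −0.38 (mean −0.46, limma, adjusted p = 0.293), and higher in *Card9*-/- cells averaged over the surfaces (0.33, adjusted p = 0.252). The adaptors *Dok1* (−0.26) and *Pag1* (−0.41, of which −0.95 in experiment 3) were also lower on IC. *Ptpn1*, which encodes the phosphatase PTP1B, was lower in *Card9*-/- cells in all 3 experiments (mean −0.36, adjusted p = 0.387), and *Ubash3b*, which encodes the phosphatase Sts-1, had −0.32.

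The activating partners of these receptors are paired immunoreceptors and the adaptors through which they signal. Their 12 clusters had a median genotype difference on control of −0.101, with 11 below 0, against 0.026 over all clusters. Of them, only *Trem3* and *Hcst* were below 0 in all 3 experiments. *Lilra6* had 0.40, −0.43 and −0.62 in experiments 1, 2 and 3, and *Sirpb1a* had 0.26, −0.068 and −0.31. The comparison uses the wild-type control array of experiment 3, and the part of that array in the median was not tested. *Lilra6*, a *Pira*-type relative of *Pirb*, had −0.30 averaged over the surfaces, with 0.069, −0.47 and −0.51 in experiments 1, 2 and 3, *Trem1*, an amplifier of myeloid activation, had 0.26 between the surfaces and −0.16 between the genotypes, *Pilrb1*, an activating receptor, had −0.12 between the genotypes, and its relative *Pilrb2* had 0.27 between the surfaces. *Sirpb1a*, an activating relative of *Sirpa* on a cluster that names 3 genes, had −0.15 between the surfaces. Among the ligands, the cluster shared by the MHC class I genes *H2-K1* and *H2-D1*, which encode ligands of PIR-B, was lower in *Card9*-/- cells in all 3 experiments (mean −0.20, limma, adjusted p = 0.349), and *Thbs1*, which encodes thrombospondin-1, a ligand of CD47, had 0.29 between the surfaces and −0.28 between the genotypes.

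The genes whose signal followed each of the 10 most closely were found by Pearson correlation over the 12 arrays with the experiment means removed, among the genes that a cluster names alone. For *Sirpa* these were *Zfp36l2* (r = 0.979) and *Tmem167b* (0.972), for *Cd47* they were *Far1* (0.975) and *Nsdhl* (0.967), and for *Inpp5d* they were *Celf2* (0.969) and *Setd7* (0.965). *Pirb* was followed by *Rnf141* (0.970) and *Klhl2* (0.967), *Cd300lf* by *Nfyc* (0.971) and *Nemp1* (0.952), *Ceacam1* by *Rnf139* (0.964) and *Prkar2b* (0.959), and *Cd300a* by *Irf9* (0.955) and *Tmem88* (0.944). *Siglece* was followed by *Cenpl* (0.949) and *Nod1* (0.946), *Ptpn6* by *Amn1* (0.936) and *Ptgir* (0.931), and *Lilrb4a* by *Btg1c* and *Bbs4* (both 0.918). The arrays share their experiment and RNA, and the best of many clusters is high by selection, so these values only describe likeness.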

How the data were processed

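Total RNA (150 ng) of neutrophils kept for 4 h at 37 °C was labelled and hybridized to Affymetrix mouse gene arrays, with adherent and nonadherent cells lysed together. Per transcript cluster, the authors deposited a log2 signal, and how they normalized it is not stated in any source used. Of 35556 rows, 6612 control rows were left out, and 28944 clusters were tested without a filter on signal. Gene names come from the platform annotation, and all 10 symbols matched a current gene by its ID. A single limma 3.58.1 model (lmFit and eBayes, R 4.3.3) held the 4 groups and a fixed term for the experiment. It had 6 residual degrees of freedom and 5.4 prior ones. Its two-sided p-values were adjusted after Benjamini and Hochberg over every cluster of a comparison, and an adjusted p under 0.05 counted as called. The labels number the arrays by experiment, and deviations from the group means correlated at 0.671 to 0.867 for the same number and at −0.727 to 0.355 for different numbers. The procedure was tested on simulated data. The planted changes were larger than any mean difference of the 10 genes, so that test does not bear on smaller ones. Figures and sequence counts used Python 3.11.15 with pandas 2.3.3 and matplotlib 3.10.9.

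The 10 genes and the lists of further genes were chosen with earlier results of these data known. Of the lists, genes past the threshold, or else up to 3 with the smallest p in each averaged comparison, are named. *Cd72*, *Siglecf*, *Pecam1*, *Cd200r1*, *Clec4a2*, *Vsir*, *Ceacam2*, *Cd33*, *Trem3* and *Hcst* are named outside this rule. Values of the named genes in other comparisons, and the letters searched in the sequences, were chosen after the values or sequences had been seen. The alternatives were no block, a random block, clusters above the median signal only, median centring and quantile normalization. Others were the methods' factorial test without moderation or block, the other clusters of a gene, and leaving out each experiment. Leaving out the wild-type control array of experiment 3 was added after seeing the data. Levels of different clusters are not compared, since probes differ in brightness, and the number of arrays limits the precision.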

Additional observations from a re-analysis of the deposited data

How the results depend on the processing

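None of the 10 genes was called under any alternative in any of the 7 comparisons. Outside of leaving out an experiment or an array, 332 of 340 values of single genes kept their direction and 8 turned, the largest of these with a size of 0.0929. *Pirb* turned with its other clusters, to 0.0287 for IC in *Card9*-/- cells, to −0.0016 for the difference in response, and to −0.128 and −0.0231 for the genotypes on IC. *Ceacam1* for IC in wild-type cells (0.0348) and *Ptpn6* for the genotypes on control (0.0012) turned with quantile normalization, and *Ptpn6* for the difference in response (0.0649) and *Cd47* for IC in *Card9*-/- cells (0.0173) turned with median centring.

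When an experiment or the wild-type control array of experiment 3 was left out, 187 of 216 values kept their direction, and those that turned had these ranges. For IC in wild-type cells they were −0.21 to 0.031 (*Pirb*), −0.0753 to 0.0367 (*Lilrb4a*), −0.33 to 0.38 (*Ceacam1*) and −0.24 to 0.057 (*Ptpn6*). For IC in *Card9*-/- cells they were −0.0995 to 0.0154 (*Pirb*), −0.0554 to 0.0394 (*Cd47*) and −0.12 to 0.0168 (*Sirpa*). For the difference in response they were −0.0854 to 0.13 (*Pirb*), −0.75 to 0.13 (*Siglece*), −0.54 to 0.11 (*Ceacam1*) and −0.13 to 0.13 (*Ptpn6*). For the genotypes on control they were −0.19 to 0.12 (*Pirb*), −0.34 to 0.0243 (*Cd300a*), −0.0313 to 0.60 (*Ceacam1*), −0.19 to 0.0746 (*Ptpn6*) and −0.18 to 0.015 (*Inpp5d*). For the genotypes on IC they were −0.0633 to 0.17 (*Pirb*), −0.14 to 0.0354 (*Lilrb4a*), −0.0903 to 0.0064 (*Cd300lf*) and −0.0028 to 0.11 (*Sirpa*).

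The number of clusters called depended on the replicate block that pairs the arrays of an experiment. Without the block, 1 cluster in place of 11 was called for the genotypes on control, 0 in place of 47 on IC, 0 in place of 3 for the surfaces averaged and 3 in place of 153 for the genotypes averaged. With a random block the numbers were 7 for IC in wild-type cells (0 with the fixed block), 105 for the genotypes on IC and 19 for the surfaces averaged. Median centring left 22 for the genotypes on IC and 100 for the genotypes averaged. The methods' factorial test had neither moderation nor block. It called 0, 0, 0 and 1 for the genotypes on control and on IC and for the surfaces and genotypes averaged. Leaving out an experiment or the array gave 0 to 51 for IC in wild-type cells (51 without experiment 1), 2 to 9 and 3 to 116 for the genotypes on control and on IC (2 and 3 without experiment 2, 116 without experiment 3), 0 to 24 for the surfaces averaged and 9 to 204 for the genotypes averaged (9 without experiment 2, 59 without the array). The causes were not tested.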
